A study of Mus musculus with 5 samples.

Results

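The genes described here are 5 carboxylesterases, Ces1d, Ces1f, Ces2a, Ces2c and Ces2e, taken by symbol from a gene table of 27998 genes. Each symbol named 1 row, and each deposited Ensembl identifier matched the GENCODE M21 gene of that name. Gene expression in single epithelial cells was measured with the 10x Chromium 3' kit (v2 chemistry), which counts each captured RNA molecule once by a unique molecular identifier (UMI). The cells came from the ileum, the last stretch of the small intestine, of C57BL/6 mice aged 8 to 12 weeks. The sham group (3 libraries) had sham surgery, and the resection group (2 libraries) had a piece of the small bowel removed. The labels give neither the time after surgery nor whether the libraries came from separate mice, so p-values measure only the spread between these libraries.

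Carboxylesterases are serine hydrolases of the endoplasmic reticulum that cut ester bonds in lipids, in foreign compounds and in ester prodrugs. The Ces1 enzymes are best known from liver and fat tissue, where Ces1d is a triacylglycerol hydrolase that takes part in lipoprotein assembly and lipolysis, and Ces1f is a close relative with lipid hydrolase activity. The Ces2 enzymes are the main carboxylesterases of the small intestine, and Ces2a and Ces2c hydrolyse acylglycerols. Enterocytes take up dietary lipid and oral drugs, so these enzymes act on material that has just crossed the brush border.

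All 5 genes lie on chromosome 8 of GRCm38, in a Ces1 block on the minus strand and a Ces2 block on the plus strand. Ces1d spans chr8:93166068-93197838 and Ces1f spans chr8:93256236-93279747, each with 14 exons. Ces2a spans chr8:104734003-104741634, Ces2c spans chr8:104847068-104854483 and Ces2e spans chr8:104926260-104934672, each with 12 exons. Coding sequences were 78.0% identical between Ces1d and Ces1f, 83.3% between Ces2a and Ces2e and 84.0% between Ces2c and Ces2e. Between the Ces1 and the Ces2 members the identity was 61.3% to 63.6%.

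The catalytic serine sits in a conserved stretch that shows how alike the 5 genes are, and it is printed here as the 63 coding bases around the serine codon (GENCODE M21, GRCm38, in the direction of the gene). Capitals mark the serine codon.
Ces1d: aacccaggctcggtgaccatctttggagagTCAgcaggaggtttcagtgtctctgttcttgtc
Ces1f: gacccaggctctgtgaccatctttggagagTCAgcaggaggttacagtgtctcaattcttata
Ces2a: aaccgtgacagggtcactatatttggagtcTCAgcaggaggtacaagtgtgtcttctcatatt
Ces2c: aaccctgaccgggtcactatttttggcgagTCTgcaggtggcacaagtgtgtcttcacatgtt
Ces2e: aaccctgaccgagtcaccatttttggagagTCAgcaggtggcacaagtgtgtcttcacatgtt
The serine codon lies in exon 5 of each gene, and in the Ces1 members the printed stretch runs on into exon 6. Ces2c and Ces2e shared 59 of the 63 bases, Ces1d and Ces1f shared 56, and pairs of a Ces1 and a Ces2 member shared 39 to 45. The codon before the serine codon reads gtc in Ces2a and gag in the other members.

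The last coding bases carry the signal that keeps these enzymes in the endoplasmic reticulum, a C-terminal HXEL motif. Each line below holds the final 30 coding bases (same source), with the 4 codons of that motif in capitals and the stop codon after them.
Ces1d: ccatcccacagggaaCATGTTGAGCTCtga
Ces1f: caaccccagccatacCACAATGAGCTGtga
Ces2a: ggttctcaggacaagCATGCAGAGCTGtag
Ces2c: gcttctcaggacaagCACAGGGAGCTTtag
Ces2e: gggtctcaggagaggCACAAAGAGTTGtag
The motif was present in all 5 members.

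Because the 3' kit reads the end of a transcript, the share of a gene's tail that also occurs in other genes bears on its count. Of the 50-base windows in the last 500 transcript bases, none of Ces2e occurred in another gene, against 1.77% for Ces1d, 2.22% for Ces1f and 9.98% for Ces2a. For Ces2c the share was 35.7%, with matches in Ces2b, Ces2d-ps and Ces2e, so the low Ces2c counts below are uncertain. How the authors' counting treated reads with several matches is not given in the sources used here.

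The 250 bases before the start site are shown for the Ces2 members, since Ces2a and Ces2e had the same highest and lowest cell classes. The sequences are from RefSeq (GRCm38.p6, in the direction of the gene), where 3 of the 5 members were matched, and capitals mark the motifs found.
Ces2a: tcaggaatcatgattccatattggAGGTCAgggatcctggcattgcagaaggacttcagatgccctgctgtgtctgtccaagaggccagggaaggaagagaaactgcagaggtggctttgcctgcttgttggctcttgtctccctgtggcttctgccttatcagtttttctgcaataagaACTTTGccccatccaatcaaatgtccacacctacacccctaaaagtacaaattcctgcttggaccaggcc
Ces2c: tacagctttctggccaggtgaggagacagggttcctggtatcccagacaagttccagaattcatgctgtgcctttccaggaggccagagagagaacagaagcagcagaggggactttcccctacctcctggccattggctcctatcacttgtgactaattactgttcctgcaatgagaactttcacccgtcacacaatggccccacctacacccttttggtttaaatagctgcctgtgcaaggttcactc
Ces2e: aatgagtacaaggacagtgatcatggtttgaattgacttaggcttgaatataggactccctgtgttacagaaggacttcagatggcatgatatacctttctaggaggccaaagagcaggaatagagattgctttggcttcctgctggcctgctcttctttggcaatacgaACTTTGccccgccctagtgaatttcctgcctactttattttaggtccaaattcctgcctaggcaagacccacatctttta
The positions are chr8:104733753-104734002 for Ces2a, chr8:104846818-104847067 for Ces2c and chr8:104926010-104926259 for Ces2e. The letters CAAAGT, a half-site of the enterocyte factor HNF4, were found on the reverse strand at -70 in Ces2a and at -80 in Ces2e, counted from the start site. The nuclear receptor half-site AGGTCA was found at -226 in Ces2a. Of 32851 mouse promoter windows of that length, searched on both strands, 12.6% held CAAAGT and 14.0% held the AGGTCA half-site. The other motifs searched were the TATA box TATAAA (in 12.4% of windows) and the CDX2 motif TTTATG (in 10.8%), and none of the 3 windows held either. Ces2c thus had no match. The motifs found did not overlap, and a match is a string of letters only.

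The libraries held 1402 to 7233 deposited cells and 11749028 to 41281731 UMIs, with medians of 4541 to 6240 UMIs per cell. After filtering and removal of predicted doublets, 18235 cells were kept. Cells were clustered without the carboxylesterase genes and classes were named from marker lists as enterocyte-like, immature enterocyte-like, goblet-like, Paneth-like, cycling-like, stem-like and T cell-like. The immature enterocyte markers summed higher in enterocyte-like than in immature enterocyte-like cells in each sham library and in resection 1 (66477 against 58709 CPM). They summed lower in resection 2 (71338 against 81627 CPM). The enterocyte markers summed to 6594 to 12467 CPM in enterocyte-like and 1203 to 2196 CPM in immature enterocyte-like cells. The summed level of its own markers thus does not bear out the immature name in most libraries. The enterocyte-like class held 704, 1877 and 1070 cells in the sham and 2369 and 4049 in the resection libraries. Libraries differed in the make-up of the enterocyte-like class: 97.2% of the enterocyte-like cells of sham 1 lay in a cluster led by Gm26870, 83.9% of those of sham 3 in one led by Ccl20, and those of the other libraries in other clusters. Sham 1 and resection 1 had nearly all of their immature enterocyte-like, Paneth-like and cycling-like cells in clusters led by Gm10263, Gm10104 and Mki67, while the other libraries had theirs in clusters led by Gsdmc4, Defa24 and Ube2c. Differences within this pair (set A) and within the other 3 libraries (set B) are therefore given beside most pooled differences of the members, although the labels name neither set as a batch. Pairs of libraries shared 6 to 45 cell barcodes, at most 1.39% of the smaller library.

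Enterocyte-like cells were dominated by a single carboxylesterase, Ces2e. Counts of a 3' kit are 1 tag per molecule and need no length correction, so levels can be set side by side as counts per 1000000 UMIs (CPM), here scaled between libraries by the trimmed mean of M-values (TMM). Ces2e stood at 1216 ± 82.2 CPM in enterocyte-like cells (SD, n = 5 libraries), Ces2a at 285 ± 77.7, Ces1f at 55.2 ± 24.1, Ces2c at 3.32 ± 1.31 and Ces1d at 1.22 ± 1.81. Of all UMIs from the 20 carboxylesterase genes, Ces2e held 70.4% to 83.8% across libraries and Ces2a 12.4% to 23.0%. The 15 other carboxylesterases together held 0.632% to 1.44%. The order Ces2e, Ces2a, Ces1f held in each library, while Ces2c and Ces1d had few UMIs.

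Ces2e, a small intestinal carboxylesterase, was highest in enterocyte-like cells and lowest in crypt-base cells. Its level was 641 ± 116 CPM in goblet-like, 568 ± 39.4 in immature enterocyte-like, 212 ± 32.2 in cycling-like and 133 ± 26.2 in Paneth-like cells (SD, n = 5). In stem-like cells, which were present in 4 libraries and scaled by their totals alone, it was 142 ± 37.8 CPM. On these scaled levels, enterocyte-like cells held 2.15 ± 0.192 times the Ces2e level of immature enterocyte-like cells and 9.43 ± 2.11 times that of Paneth-like cells. They were higher in 5 of 5 libraries in both cases. TMM factors were set separately in each class, so such a ratio also carries the factors of both classes. Its SD is therefore not that of unscaled ratios. In Paneth-like cells of resection 2 Ces2e was 159 CPM scaled and 215 CPM unscaled. Goblet-like and immature enterocyte-like cells did not differ beyond their spread, nor did stem-like and Paneth-like cells.

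Ces2a, an acylglycerol hydrolase, had the same top and bottom of its order with smaller steps. It stood at 193 ± 49.7 CPM in immature enterocyte-like, 185 ± 35.9 in goblet-like, 63.7 ± 11.7 in cycling-like and 34.2 ± 11.9 in Paneth-like cells (n = 5), and at 51.2 ± 10.3 in stem-like cells (n = 4). Enterocyte-like cells held 1.48 ± 0.189 times the level of immature enterocyte-like cells, on levels scaled separately by class, and were higher in 5 of 5 libraries. The ranges of immature enterocyte-like and goblet-like cells overlapped, as did those of cycling-like and stem-like cells.

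Ces1f had another order. It was 68.1 ± 30.8 CPM in immature enterocyte-like, 55.2 ± 24.1 in enterocyte-like and 42.9 ± 21.2 in goblet-like cells (n = 5), and these 3 classes overlapped. The enterocyte-like level was above the immature level in only 2 of 5 libraries, with a mean ratio of 0.924 ± 0.482 on levels scaled separately by class. Levels were low in cycling-like (13.3 ± 6.61), stem-like (9.89 ± 8.32, n = 4) and Paneth-like cells (5.38 ± 2.21). The classes were built from these same cells, so these contrasts are descriptions without a test.

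**Figure D1:**
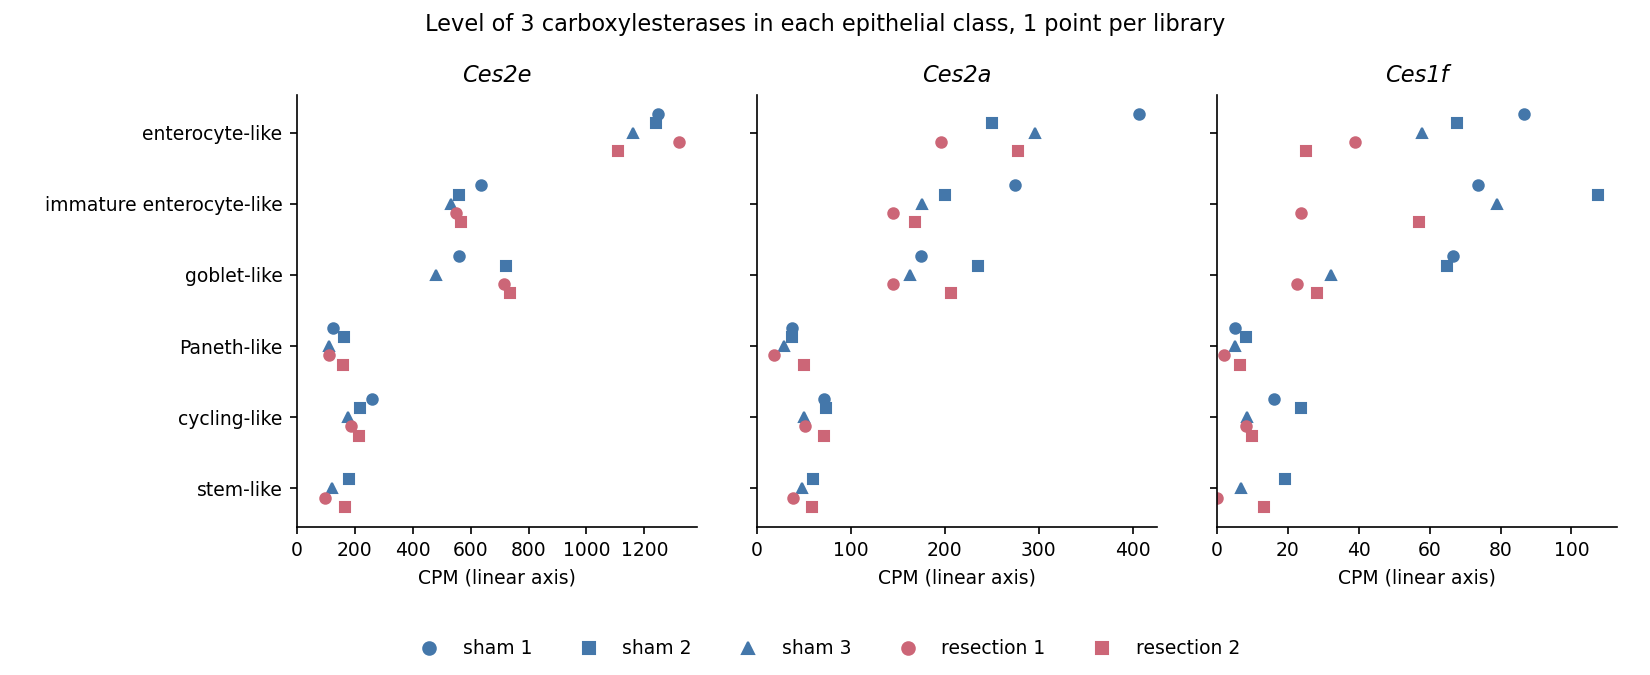
Level of Ces2e, Ces2a and Ces1f (CPM, linear axis) in each epithelial class, with 1 point per library. Stem-like cells were scaled by library totals only, and sham 1 had none. Ces2e and Ces2a peaked in enterocyte-like cells, while Ces1f was as high in immature enterocyte-like cells, and both resection libraries lay below all sham libraries for Ces1f in the enterocyte-like, immature enterocyte-like and goblet-like classes.

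The 2 low members could be placed less well. Ces2c, an intestinal acylglycerol hydrolase, gave 166 UMIs in all enterocyte-like cells and was at 3.18 ± 3.01 CPM in goblet-like and 1.24 ± 0.572 CPM in immature enterocyte-like cells (n = 5). Ces1d gave 86 UMIs in enterocyte-like cells and none in goblet-like cells, where 3 UMIs would correspond to 3.38 to 15.4 CPM. In cycling-like cells Ces1d stood at 1.60 ± 1.06 CPM, from 0 to 4 UMIs per library. Stem-like cells gave 9 Ces1d UMIs at 1.64 ± 2.88 CPM (n = 4), and 8 of these UMIs were in resection 2. There the stem-like level was 5.93 CPM (259 cells), above the 0.894 CPM of enterocyte-like cells of the same library. Outside enterocyte-like cells these counts are mostly near the floor of 3 UMIs, and no order of classes was read from them.

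Carboxylesterase UMIs also appeared in cells of another lineage. T cell-like droplets, named from Cd3e, Cd3g, Gzma and other T cell genes, held Ces2e at 753 ± 84.6 CPM and Ces2a at 211 ± 76.2 CPM (n = 5). Their summed level of the 10 enterocyte markers was 4147 to 6484 CPM, against 6594 to 12467 CPM in enterocyte-like cells. Goblet markers (8 genes) summed to 1537 to 17128 CPM in T cell-like and 696 to 1400.2 CPM in enterocyte-like cells, and Paneth markers (8 genes) to 3597 to 62875 and 1331 to 7023 CPM. After thinning each cell to 2000 UMIs, 90.4 ± 3.33% of enterocyte-like and 69.3 ± 10.3% of T cell-like cells had a Ces2e UMI, and 40.7 ± 7.62% and 32.3 ± 11.4% had a Ces2a UMI. For Ces1f these shares were 9.66 ± 5.52% and 5.71 ± 4.21%. Median depths were 4015 to 6448 UMIs in enterocyte-like and 4002 to 6805 in T cell-like cells. The T cell-like means of Ces2e and Ces2a lay above those of goblet-like (641 and 185 CPM) and immature enterocyte-like cells (568 and 193 CPM). The ranges over libraries overlapped. The share of the goblet-like, immature enterocyte-like, Paneth-like, cycling-like and stem-like levels that came from RNA of other cells was not tested.

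Comparing surgery groups in enterocyte-like cells, the largest difference among the tested members was in Ces1f, which was lower after resection. Ces1f stood at 86.6, 67.8 and 57.8 CPM in the sham libraries and at 38.8 and 25.1 CPM in the resection libraries. The groups did not overlap, and the lowest sham library was above both resection libraries. Group means were 70.7 ± 14.7 (n = 3) and 31.9 ± 9.70 CPM (n = 2). In edgeR's quasi-likelihood test the log2 difference was -1.15 ± 0.32 (SE), with an unadjusted p of 0.00715 and a Benjamini-Hochberg adjusted p of 0.617 over 10088 genes, which did not pass 0.05.

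No gene passed that threshold in enterocyte-like cells (0% of 10088 genes by edgeR, with 512 at an unadjusted p under 0.05), while DESeq2 called 62 genes and gave Ces1f an adjusted p of 0.127. Non-overlapping groups were common as well: 8.51% of genes had both resection libraries below all sham libraries and 10.2% had them above. The difference in Ces1f had about the same size in both library sets, with -1.16 in set A and -1.31 in set B (log2, no test). Fewer of the cells had a Ces1f UMI as well: after thinning to 2000 UMIs the share was 18.6%, 9.32% and 9.16% in the sham and 7.64% and 3.56% in the resection libraries. The stem marker list (9 of 9 detected) also differed without overlap in these cells, at 18.9 to 29.5 CPM in the sham and 35.2 to 37.4 CPM in the resection libraries, and its part in the Ces1f result was not tested.

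Ces2e, the most abundant member, had the same mean in both groups. It stood at 1247, 1240.2 and 1161 CPM in the sham libraries and at 1321 and 1109 CPM in the resection libraries, which lay on either side of the sham values. The log2 difference was 0.00 ± 0.31 (SE), with an edgeR adjusted p of 0.9997. Set A gave 0.08 and set B -0.11. The SE, derived here from the F statistic and approximate near a difference of 0, limits what could be seen. The Ces1f difference given above was several times its SE and did not pass, so a Ces2e difference larger than its SE could also go undetected.

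Ces2a did not differ beyond the spread between libraries. It stood at 406, 250.0 and 296 CPM in the sham libraries and at 196 and 278 CPM in the resection libraries. Sham 1 was the highest library and resection 1 the lowest, and the groups overlapped. The log2 difference was -0.42 ± 0.34 (SE; edgeR adjusted p = 0.9997). Set A gave -1.05 and set B 0.03, so the pooled value rests on sham 1 and resection 1. It was -0.21 without sham 1 and -0.19 without resection 1.

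Ces2c stood at 4.78, 3.06 and 2.43 CPM in the sham libraries and at 4.54 and 1.79 CPM in the resection libraries, from 21 to 65 UMIs each. The resection libraries were the second highest and the lowest of the 5, so the groups overlapped. The log2 difference was -0.09 ± 0.50 (SE; edgeR adjusted p = 0.9997). Set A gave -0.07 and set B -0.56, and it was -0.89 without resection 1 and 0.45 without resection 2.

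Ces1d lay in the opposite direction to Ces1f, at very low counts. Enterocyte-like cells held 1, 0 and 5 Ces1d UMIs in the sham libraries and 63 and 17 in the resection libraries. On the CPM scale this was 0.217, 0 and 0.579 against 4.40 and 0.894, so the groups did not overlap, and most of the difference lay in resection 1. Of the 10088 genes tested, 10.2% had this order, but Ces1d was not among them. No share was computed for genes of such low counts. In sham 2 a count of 0 allows up to 0.382 CPM on the same scale. Ces1d did not pass the filter on low counts and had no test in that fit. With no filter its log2 difference was 3.18 ± 0.65 (SE, edgeR adjusted p = 0.000224). That fit called 156 genes higher and 87 lower of 15788, where the filtered fit called 0 of 10088. With all epithelial cells of a library summed, the log2 difference of Ces1d was 1.76 ± 0.67 (edgeR adjusted p = 0.9996). For these summed cells, set A gave 3.69 and set B 0.56, and the difference was 0.92 without resection 1. The difference of the mean enterocyte-like CPM, 2.38, was 0.629 without resection 1. In immature enterocyte-like cells the order was not the same, with 0, 5 and 4 Ces1d UMIs in the sham and 2 and 1 in the resection libraries.

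**Figure D2:**
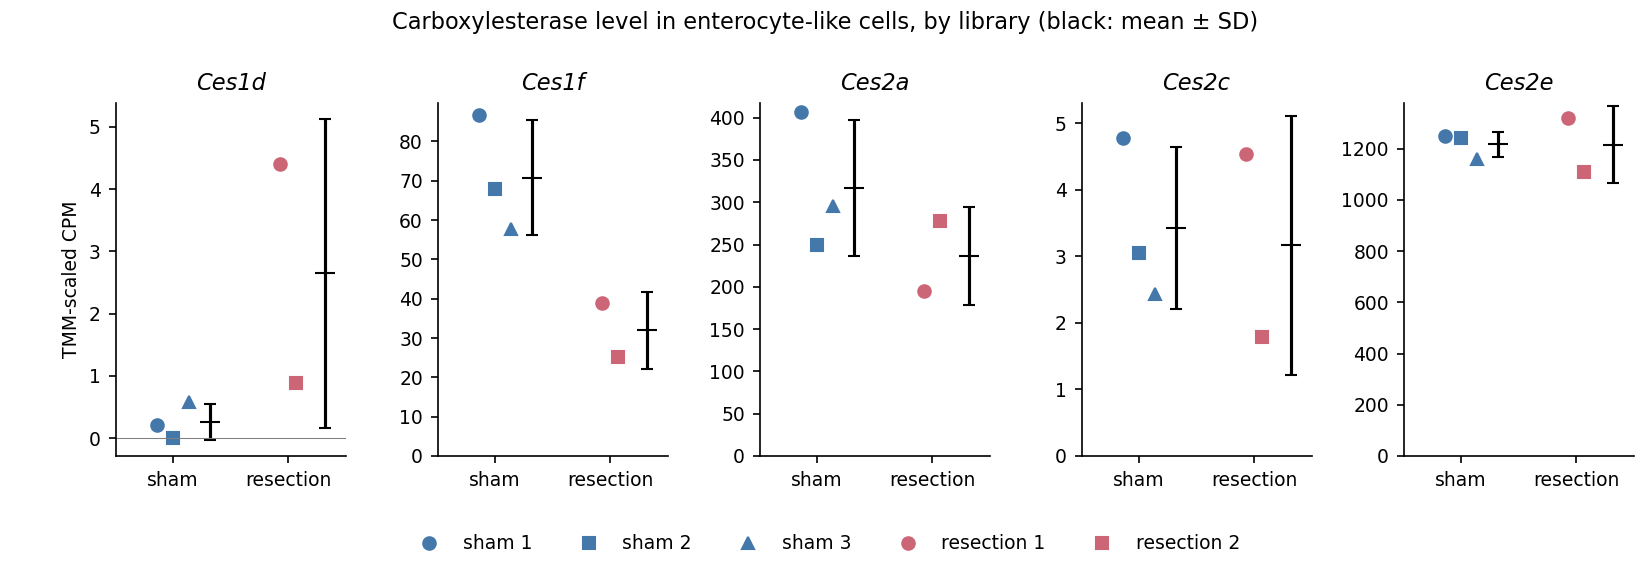
TMM-scaled CPM of the 5 carboxylesterases in enterocyte-like cells, with 1 point per library and the group mean ± SD in black (3 sham, 2 resection; each panel has its own linear axis). Both resection libraries lay below all sham libraries for Ces1f (38.8 and 25.1 against 57.8 to 86.6 CPM) and above them for Ces1d, and the groups overlapped for Ces2a, Ces2c and Ces2e. Of all genes tested, 8.51% lay below and 10.2% above without overlap, and Ces1d was too low to be among them.

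Ratios between members within a library do not depend on scaling, and some of them separated the groups while others did not. Each ratio that did so held Ces1f or Ces1d and so restates the difference of that member. Besides those given below, these were Ces1f to Ces2c and Ces1d to each Ces2 member (no value in sham 2). No ratio between Ces2 members separated the groups. The share of all gene pairs that separate the groups was not computed. The log2 ratio of Ces1f to Ces2e was -3.85, -4.19 and -4.33 in the sham and -5.09 and -5.47 in the resection libraries. Ces1f made up 4.89%, 4.31% and 3.77% of all carboxylesterase UMIs in the sham libraries and 2.46% and 1.76% in the resection libraries, with exact 95% intervals of 3.46% to 5.38% over the sham and 1.61% to 2.67% over the resection libraries that cover counting error only. The ratio of summed Ces2a, Ces2c and Ces2e to summed Ces1d and Ces1f was 4.26, 4.46 and 4.64 against 5.14 and 5.74 (log2). Ces1d to Ces1f was -8.64 in sham 1 and -6.64 in sham 3 and -3.14 and -4.81 in the resection libraries, with no value in sham 2, where Ces1d was at 0. The ratio of Ces1f to Ces2a overlapped between groups, at -2.23, -1.88 and -2.36 in the sham and -2.33 and -3.47 in the resection libraries, and so did the ratio of Ces2a to Ces2e. With 3 against 2 libraries an exact permutation test cannot give a p below 0.1, so none is given.

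The Ces1f estimate lay below 0 in the other epithelial classes as well. In immature enterocyte-like cells it was 73.7, 107 and 78.9 CPM in the sham and 23.7 and 56.9 CPM in the resection libraries, without overlap, and the log2 difference was -1.11 ± 0.41 (SE; edgeR adjusted p = 0.99997, 0% of 9719 genes called, with 4.85% of genes below and 6.52% above without overlap). In goblet-like cells it was 66.6, 65.0 and 32.2 against 22.6 and 28.2 CPM, and the difference was -1.04 ± 0.42 (adjusted p = 0.999 by edgeR, 0% of 4966 genes called, with 7.53% below and 8.92% above without overlap), from 7 to 53 UMIs per library. Cycling-like cells gave -0.74 ± 0.46 (0% of 9418 genes called, with 4.92% below and 6.01% above without overlap) and Paneth-like cells -0.57 ± 0.49 (0.0661% of 6055 genes called, with 6.33% below and 6.92% above without overlap), and the Ces1f values of the groups overlapped in both. Set A gave -1.62 for immature enterocyte-like, -1.42 for goblet-like, -0.90 for cycling-like and -1.06 for Paneth-like cells, where set B gave -0.69, -0.64, -0.47 and 0.05. The immature enterocyte-like value was -0.61 without resection 1 and -1.88 without resection 2. The cycling-like value was -0.28 without sham 2 and -1.17 without sham 3, and the Paneth-like value was 0.066 without resection 1, -1.55 without resection 2 and -0.31 without sham 2. Unadjusted p-values from edgeR were 0.0267 in immature enterocyte-like, 0.0260 in goblet-like, 0.139 in cycling-like and 0.263 in Paneth-like cells. Over all epithelial cells the Ces1f level was 61.6, 64.4 and 43.7 against 25.3 and 26.8 CPM, a log2 difference of -1.12 ± 0.26, with -1.28 in set A and -0.98 in set B (adjusted p = 0.9996 by edgeR, 0% of 11706 genes called, with 6.33% below and 8.01% above without overlap). T cell-like droplets, a class outside the epithelium, had the same order for Ces1f, with 36.3, 31.2 and 35.4 against 4.07 and 13.1 CPM. These values rest on 1 to 18 UMIs per library, and the share of all genes with this order was not computed there. The part of RNA from other cells in the differences by class was not tested. Whether the difference is of another size in one class than in another was not tested, and all classes come from the same libraries.

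The Ces2 members had smaller estimates, most of them near 0. Ces2a in immature enterocyte-like cells was 274, 200.4 and 175 CPM in the sham and 145 and 168 CPM in the resection libraries, without overlap, at a log2 difference of -0.47 ± 0.30 (adjusted p = 0.99997 by edgeR), which was -0.26 without sham 1. Set A gave -0.92 and set B -0.16. In goblet-like, cycling-like and Paneth-like cells Ces2a differed by -0.12, -0.08 and -0.03, with set A below 0 and set B above 0 in each. Ces2e differed by -0.04 in immature enterocyte-like, 0.30 in goblet-like, -0.12 in cycling-like and 0.02 in Paneth-like cells, each within 1 SE of 0.

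**Figure D3:**
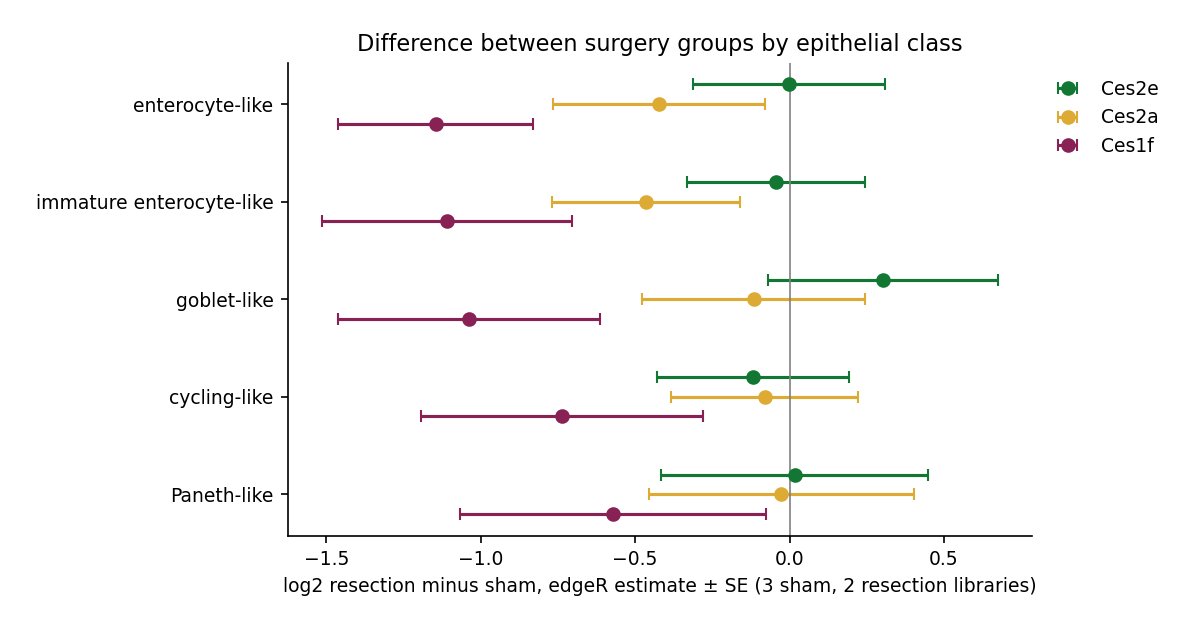
Log2 difference between resection and sham for Ces2e, Ces2a and Ces1f in 5 epithelial classes (points, edgeR estimates; bars, SE; 3 sham and 2 resection libraries). Ces1f lay below 0 in each class, between -1.15 (enterocyte-like) and -0.57 (Paneth-like), and Ces2e lay within 1 SE of 0; no value passed the adjusted threshold.

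Position along the villus was approximated by a per-cell score, the level of 8 tip genes such as Ada and Nt5e minus that of 8 base genes such as Gsdmc4 and Reg3b. Enterocyte-like and immature enterocyte-like cells were split into 5 bins of equal cell number within each library, so a bin is a range of a score and not a cell type. All base genes but Il18 are also markers of the immature enterocyte-like list. The bins are therefore not independent of the contrast between these 2 classes given above. Scored by the tip genes alone, the mean log2 ratio of top to bottom bin was 0.79 ± 0.26 for Ces2e, 0.49 ± 0.21 for Ces2a and -0.60 ± 0.60 for Ces1f (SD, n = 5). Values are CPM over the cells of a bin.

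Ces2e was higher toward the tip in each library. From the lowest to the highest bin it went from 1006 to 1407, 619 to 1126 and 594 to 1201 CPM in the sham libraries and from 760 to 1574 and 660 to 1072 CPM in the resection libraries. The log2 ratio of top to bottom bin was 0.82 ± 0.23 (SD, n = 5). Ces2a had a slope of the same sign in each library, with a mean of 0.48 ± 0.23, and it was smaller than that of Ces2e in 3 of 5 libraries.

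Ces1f ran the other way. It went from 106 to 86.7, 87.9 to 40.4 and 72.2 to 37.0 CPM from base to tip in the sham libraries. In resection 2 it went from 46.2 to 6.43 CPM (27 UMIs in the top bin), the steepest slope, and in resection 1 it was level at 35.6 and 35.7 CPM. The mean log2 ratio was -1.04 ± 1.11 (n = 5), and it was -0.60 without resection 2. In each of the 5 bins both resection libraries lay below all sham libraries, narrowly in the top bin (35.7 CPM in resection 1 against 37.0 in sham 3). The bins split cells of the same libraries, so they are not separate observations. The share of all genes with this order was not computed by bin, and in undivided enterocyte-like cells it was 8.51%. The log2 ratio of group means was -1.12, -1.07, -1.08, -1.61 and -1.38 from the lowest to the highest bin.

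**Figure D4:**
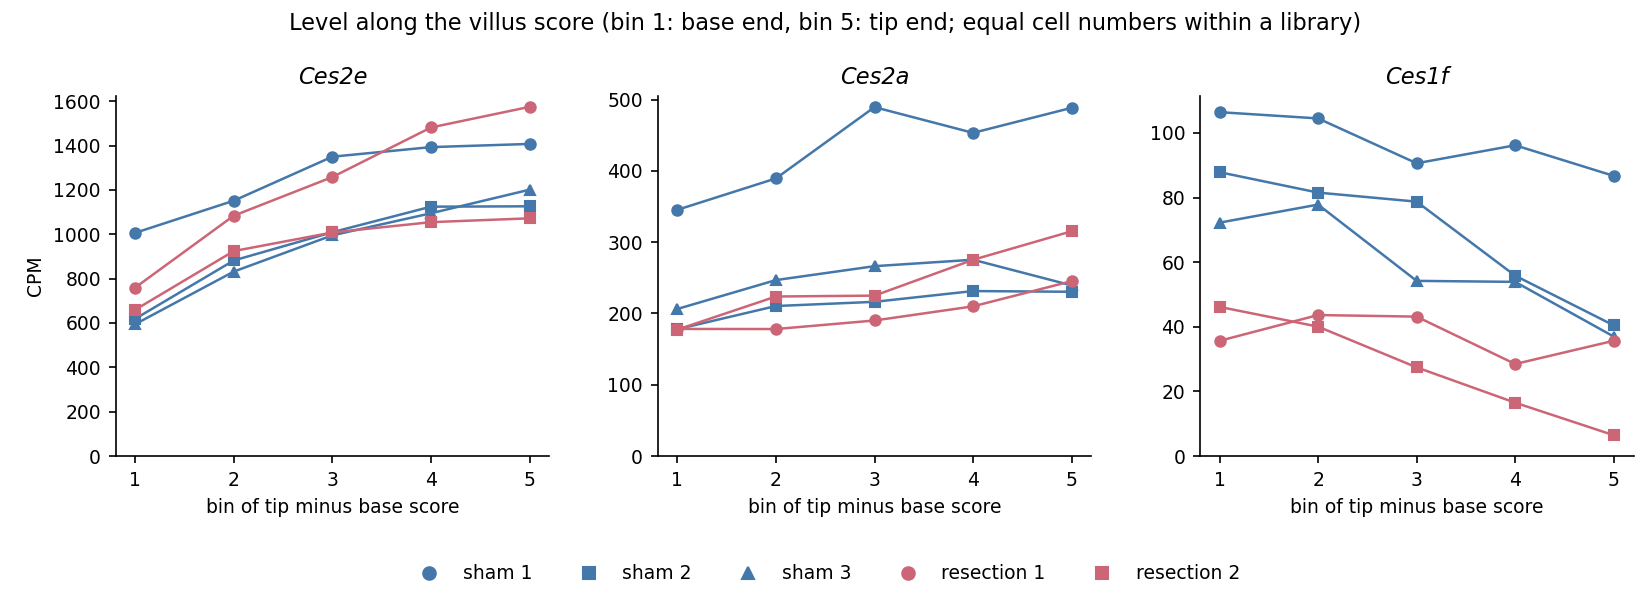
CPM of Ces2e, Ces2a and Ces1f in 5 bins of the tip minus base score (bin 1, base end; bin 5, tip end), with 1 line per library. Ces2e and Ces2a were higher in bin 5 than in bin 1 in each library, and Ces1f was lower or level, with the resection lines below the sham lines in each bin.

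Some of the genes that define this axis also separated the groups in enterocyte-like cells. Of the 8 base genes, 3 (Gsdmc3, Gsdmc4 and Prss32) had both resection libraries below all sham libraries, and of the 8 tip genes, 2 (Ada and Nt5e) had them above, with no gene passing edgeR's adjusted threshold. The median log2 difference was -0.68 over the base genes and 0.21 over the tip genes, against -0.02 over all genes tested. Over all genes tested, 8.51% lay below and 10.2% above without overlap. Bins were set within each library, so the values by bin do not show whether cells of the groups differ in position, and the part of the axis in the Ces1f result was not tested.

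Ces1f also differed between clusters of the same library. Resection 1 held a cluster led by Abcb1a, Sgk1 and Angptl4 (945 cells) with 80.2 CPM of Ces1f, and a cluster led by Lct, Fabp1 and Apoa4 (1051 cells), genes known for their high level in the proximal small intestine, with 8.41 CPM. In resection 2 a cluster led by Ada, Cyp3a11 and Apoc3 (1736 cells) stood at 6.81 CPM, a cluster led by Fabp2 (1369 cells) at 22.1 and a cluster led by Areg (822 cells) at 44.6. In sham libraries the main clusters ranged from 46.9 CPM in the H2-Aa cluster of sham 2 to 102 CPM in the Gm26870 cluster of sham 1. The Areg cluster, which held cells of both groups, had 79.6 CPM in sham 2 (689 cells) and 67.8 in sham 3 (99 cells) against 44.6 in resection 2. The other shared enterocyte-like clusters held few cells of a surgery group or of both, and their order was mixed. The Ada cluster had 4.58 CPM in sham 2 (1 UMI) against 6.81 in resection 2. The cluster led by Ccl20 and Duoxa2 had 55.0 CPM in sham 3 against 59.9 in resection 2 (17 UMIs). The H2-Aa cluster had 46.9 CPM in sham 2 against 0 in resection 2 (33 cells). Among clusters of at least 200 cells Ces2e varied less, from 960 CPM in the Areg cluster of resection 2 to 1627 CPM in the Abcb1a cluster of resection 1.

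Among enterocyte-like clusters of at least 200 cells in resection 1, the Abcb1a cluster held the highest Ces1d level, 10.3 CPM, and the most Ces1f. The smaller Isg15 cluster of that library (46 cells) held more Ces1f, 113 CPM from 30 UMIs, and 0 Ces1d UMIs. The other enterocyte-like clusters of at least 200 cells in that library had few Ces1d UMIs. Ces1d was at 1.58 CPM (9 UMIs) in the Lct cluster. It was at 0.489 CPM (1 UMI) in a cluster led by Fgf15 (294 cells), where Ces1f was higher than in the Lct cluster, at 33.7 CPM. The Abcb1a cluster held 52 of the 71 Ces1d UMIs of the library (73.2%, exact 95% interval 61.4% to 83.1%), and no cell of the library held more than 2. Over all kept cells 62 of 3677 in resection 1 had a Ces1d UMI (1.69%, exact 95% interval 1.29% to 2.16%), against 0.492% in resection 2 and 0.156% to 0.575% in the sham libraries. The gene is known for its high level in fat tissue and liver, so markers of both were read beside it: in enterocyte-like cells, of 6 adipocyte markers Adipoq, Plin4 and Fabp4 were at 0 in each library, and of 5 hepatocyte markers Alb, Serpina1a and Fgb were at 0. In those cells the adipocyte list summed to 20.8 to 29.7 CPM in the sham and 35.2 to 57.1 CPM in the resection libraries, nearly all of it from Cidec, a lipid droplet gene, and its part in the Ces1d result was not tested.

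**Figure D5:**
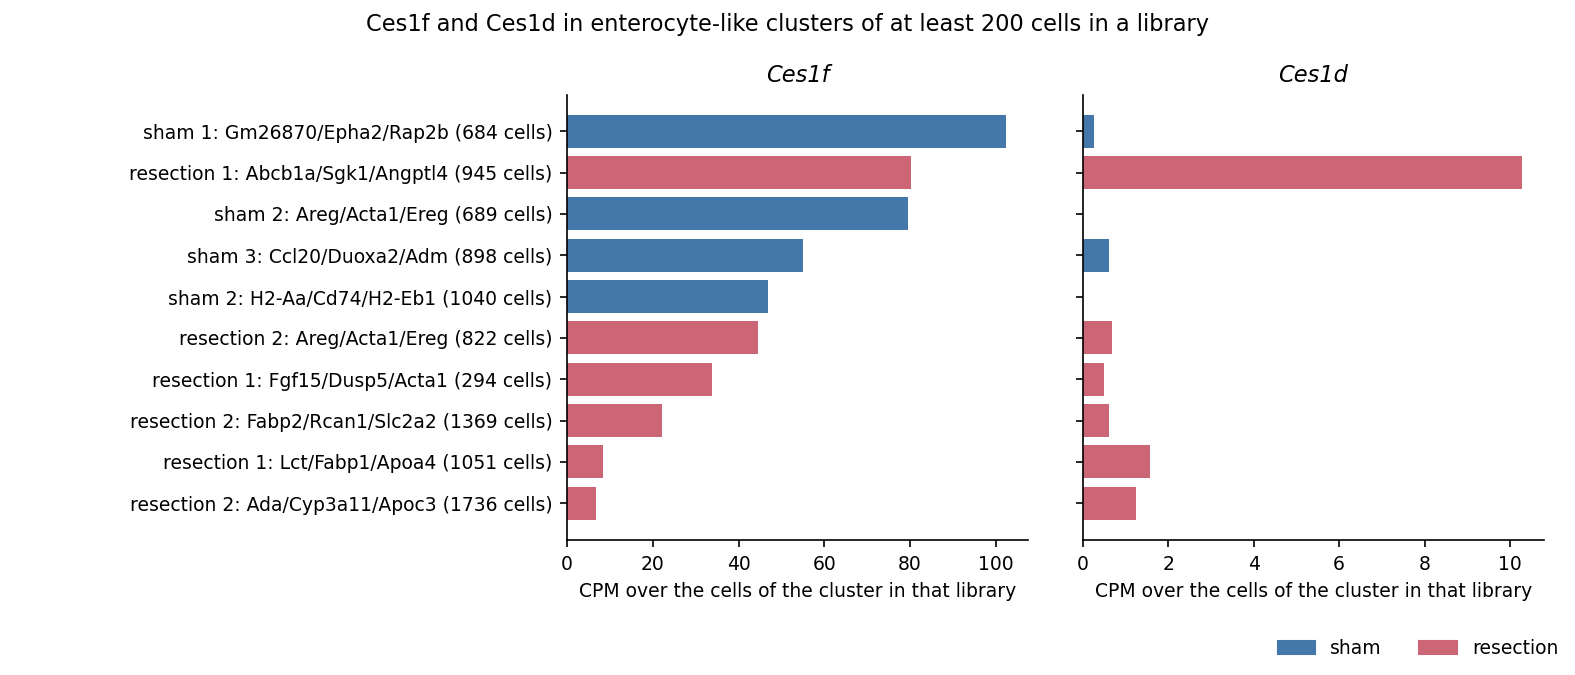
CPM of Ces1f (left) and Ces1d (right) in each enterocyte-like cluster with at least 200 cells in a library, named by its leading genes. Among the clusters shown for resection 1, the Abcb1a cluster held both the most Ces1f (80.2 CPM) and the most Ces1d (10.3 CPM), and the Lct cluster held 8.41 and 1.58 CPM.

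Among the 15 other carboxylesterases, 5 were abundant enough to test in enterocyte-like cells and none passed the threshold. Both resection libraries lay below all sham libraries for Ces1e and Ces2b, as they did for 8.51% of all genes tested. Ces1e stood at 13.0, 3.82 and 4.05 CPM in the sham and 2.80 and 1.79 CPM in the resection libraries, a log2 difference of -1.56 ± 0.60 (SE; edgeR adjusted p = 0.889) that was -0.79 without sham 1. Ces2b, named here after its values were seen, averaged 4.79 against 2.56 CPM, and its coding sequence was 92.1% identical to that of Ces2c. The median log2 difference of the 5 tested genes was -0.51, against -0.02 over all genes tested.

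Of 25 other lipid and drug hydrolases, 16 were tested and none passed. Both resection libraries lay above all sham libraries for 5 (Ephx2, Pon2, Pnpla2, Ddhd2 and Lipa) and below for 2 (Bche and Aadac), against 10.2% and 8.51% of all genes tested. Ephx2, the soluble epoxide hydrolase, had the widest gap, with 38.4, 77.9 and 34.6 CPM in the sham and 348 and 184 CPM in the resection libraries, a log2 difference of 2.40 ± 0.45 (SE; edgeR adjusted p = 0.311). Faah, a fatty acid amide hydrolase, was level between groups at 107 ± 36.1 and 103 ± 35.6 CPM. The list's median log2 difference was 0.02.

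Of 20 nuclear receptors and regulators of the family, 18 were tested and none passed. Hnf4a, a central enterocyte factor, stood at 217 ± 36.7 CPM in the sham and 209 ± 7.08 in the resection libraries. Klf4 (179 ± 98.4 against 279 ± 94.2), Cdx2 (132 ± 17.0 against 124 ± 33.9), Nfe2l2 (73.6 ± 24.5 against 95.8 ± 1.61) and Nr1i2, the pregnane X receptor (62.5 ± 14.8 against 64.9 ± 16.8), overlapped. Nr1i3, the constitutive androstane receptor, had 20.2, 21.8 and 10.3 against 54.6 and 22.9 CPM (log2 difference 1.16 ± 0.44, edgeR adjusted p = 0.889, and 0.40 without resection 1), and Hnf4g was the other gene of the list whose resection libraries lay above. The list's median log2 difference was 0.05.

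Genes whose pattern was most like a member's were sought by Pearson correlation of log2(CPM + 10) over 37 sums of 1 library and 1 class, among 4447 genes. The sums share libraries and cells, so the values are descriptions. Ces2e was most like Clec2h (r = 0.984), Slc7a7 (0.978) and Tgfbi (0.975), and Ces2a most like Tgfbi (0.962), Agpat2 (0.961) and St3gal4 (0.960). Ces1f was most like 1700011H14Rik (0.884), Gcnt4 (0.868) and Batf2 (0.863). Ces2c reached 0.745 with Edn3, 0.721 with Tef and 0.718 with Pard6b, and Ces1d no more than 0.497 with Gclc, 0.448 with Lcmt1 and 0.443 with Cacul1.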

How the data were processed

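Single-cell 3' libraries of ileal epithelium (3 sham, 2 resection) were analysed. The deposited values are unnormalised UMI counts, with a matrix for each library, which the authors made with Cell Ranger, per the labels (the version is not stated with certainty). The submitters' processing notes name the builds mm10 and GRCm38, and all 20 carboxylesterase identifiers matched GENCODE M21 (GRCm38).

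Cells needed at least 500 genes and no more than 20% of counts from mitochondrial genes, and doublets were scored by simulation and removed. Cells were clustered with scanpy 1.11.5 (2000 variable genes without carboxylesterases, 30 components, Leiden resolution 1.0). Clusters were named from at least 3 detected markers, by marker position between the lowest and highest cluster within each library. This scoring rule was chosen after a rule over all libraries had placed the enterocytes of sham 3 among immature cells. One cluster of 1578 cells, led by Ccl20, Fabp6 and 1700011H14Rik, stayed unnamed because a marker of another class was among its top 10 genes; it counts under all epithelial cells only.

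UMI counts were summed per library and class and tested with edgeR 4.0.16 (TMM, filterByExpr, quasi-likelihood F-test, R 4.3.3; threshold 0.05 after Benjamini-Hochberg adjustment over all genes tested). Classes with at least 20 cells in every library were tested; stem-like cells were absent from sham 1. CPM are TMM-scaled within a class, except for stem-like cells, the unnamed cluster, clusters and villus bins. The edgeR fit was checked on simulated data. Intervals and floors cover counting error only. Alternatives were DESeq2 1.42.0, its size factors, no filter, leaving out libraries, a replicate block, a library-set term and other clusterings; leaving 1 resection library assumes that it varies like the sham libraries.

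The members and lists were chosen with earlier results of these data known. Named genes were the 5 members, other carboxylesterases of at least 5 CPM, the 4 most abundant genes of both other lists with Nr1i2 and Nr1i3, and the 3 genes most like each member.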

Additional observations from a re-analysis of the deposited data

Results flagged for a closer look

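Carboxylesterase UMIs appeared in cells that no comparison of a single class used (the unnamed cluster and stem-like cells count under all epithelial cells). T cell-like droplets held Ces2e at 753 ± 84.6 CPM and Ces2a at 211 ± 76.2 CPM (SD, n = 5 libraries), each above 3 UMIs in every library. The unnamed cluster led by Ccl20, Fabp6 and 1700011H14Rik held Ces2e at 948 ± 114, Ces2a at 249 ± 30.4 and Ces1f at 59.5 ± 17.3 CPM (n = 3 libraries), and its Ces1f level was 76.5 and 60.2 CPM in sham 2 and sham 3 against 41.9 CPM in resection 2. Stem-like cells held Ces2e at 142 ± 37.8 and Ces2a at 51.2 ± 10.3 CPM (n = 4 libraries). Groups of 3 and 2 libraries are too small for an outlier test.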

How the results depend on the processing

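The sign of the Ces1f difference in enterocyte-like cells held in 15 of 15 alternatives, with log2 values from -1.49 to -0.86, but its adjusted p ranged from 0.0122 to 0.9999. The labels do not pair libraries: deviations from group means correlated at 0.56 for sham 1 with resection 1 and 0.14 for sham 2 with resection 2, but at 0.50 for sham 3 with resection 2. With 2 resection libraries each value has its exact negative with the other resection library, so these values cannot decide a pairing. Under the replicate block Ces1f passed the threshold in enterocyte-like (adjusted p = 0.0122), immature enterocyte-like (5.52e-05), goblet-like (0.0340) and all epithelial cells (0.00709) by edgeR. With sham 3 left without a partner, that fit rests on 2 pairs. With the library set as a term it passed in none of these (0.0888, 0.409, 0.774 and 0.172). With no filter on low counts Ephx2 (2.32e-08), Ces1e (0.0153) and Nr1i3 (0.0162) passed in enterocyte-like cells, Ephx2 also under the block (0.0225) and in DESeq2 (0.000144).

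The number of genes called was 0 in enterocyte-like cells and 243 with no filter (156 higher, 87 lower), 118 under the replicate block (61 higher, 57 lower), 62 in DESeq2 (43 higher, 19 lower) and 5 with the library set as a term. In immature enterocyte-like cells it went from 0 to 96 under the block and 1 in DESeq2, and in cycling-like cells from 0 to 12 with no filter, 62 under the block and 2 in DESeq2. In goblet-like cells it went from 0 to 18 with no filter, 82 under the block, 8 with the set term, 4 with DESeq2's size factors and 4 in DESeq2. In Paneth-like cells it went from 4 to 14 with no filter, 45 under the block and 11 with the set term, and in all epithelial cells from 0 to 18, 164 and 3 under the same settings and 35 in DESeq2. Leaving out 1 library gave 0 to 3 genes in enterocyte-like, 0 to 11 in goblet-like and 0 to 12 in Paneth-like cells. The cause of these changes was not tested.

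Thinning to 2000 UMIs lowered the share of enterocyte-like cells with a UMI to 9.66% for Ces1f, 40.7% for Ces2a, 0.728% for Ces2c and 90.4% for Ces2e, from 23.5%, 69.7%, 1.92% and 98.9%. Values near 0 changed sign. In enterocyte-like cells Ces2c was 0.040 when scaled within the library, and Ces2e was 0.024 with no filter, 0.0062 with doublets kept and 0.0091 with the unnamed cluster counted in. Under the block Ces2e was -0.10 in Paneth-like and -0.044 in all epithelial cells, and Nr1i2 was -0.094 (-0.036 with the set term). Leaving out 1 library changed the sign of Ces2e in enterocyte-like (-0.13 to 0.12), immature enterocyte-like (-0.10 to 0.037), cycling-like (-0.26 to 0.027), Paneth-like (-0.29 to 0.23) and all epithelial cells (-0.039 to 0.063). It did so for Ces2a in cycling-like (-0.33 to 0.14), goblet-like (-0.41 to 0.14) and Paneth-like cells (-0.96 to 0.51), for Ces2c in enterocyte-like (-0.89 to 0.45) and all epithelial cells (-0.69 to 0.35) and for Ces1f in Paneth-like cells (-1.55 to 0.066). Among the other named genes it did so for Faah (-0.44 to 0.27), Hnf4a (-0.18 to 0.050), Cdx2 (-0.38 to 0.18) and Nr1i2 (-0.23 to 0.31). The counts of Ces1d and Ces2c limit what can be read from them, and with 5 libraries of unstated origin no difference between the groups can be told apart from a difference between single libraries.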

Other observations

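Other carboxylesterases, described here after their values were seen, had levels unlike those of the 5 members. Ces1c, known as a plasma carboxylesterase, stood at 8.90 ± 2.80 CPM in Paneth-like cells (SD, n = 5 libraries) and at 0.0829 CPM in enterocyte-like cells. Ces2g was at 7.12 ± 3.10 CPM in immature enterocyte-like and 6.86 ± 1.14 CPM in cycling-like cells, against 1.32 ± 0.734 CPM in enterocyte-like cells. Ces1e averaged 16.3 ± 8.56 CPM in immature enterocyte-like and 5.10 ± 4.52 CPM in enterocyte-like cells.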
